A study of Mus musculus with 4 samples.

Results

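The matrix metalloproteinases (Mmp), the ADAMTS proteases, the ADAMTS-like proteins and the tissue inhibitors of metalloproteinases (Timp) were followed in sciatic nerve RNA of a mouse model of transthyretin (TTR) amyloidosis. Genes were taken by symbol, without Mmp8 and Mmp9, which gave 49 of the 50593 genes in the table: 21 Mmp, 19 Adamts, 5 Adamtsl and 4 Timp genes. HSF WT mice were heterozygous for a deletion of the heat shock factor gene Hsf1 and carried no TTR transgene. HSF V30M mice carried the same heterozygous deletion and, in addition, human TTR with the V30M mutation on a background without endogenous Ttr, so the transgene and the loss of mouse Ttr cannot be told apart here. Both groups were of strain 129S1/SvImJ and 6 months old. The labels list 2 mice in each group. The methods state n = 4 for the sequencing and leave unclear if that number is for each group or for both.

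Metalloproteinases of these families use a zinc ion to cut proteins outside the cell. Mmp enzymes cut collagens, laminin and other matrix proteins, several ADAMTS enzymes cut proteoglycans or trim procollagens, and the ADAMTS-like proteins resemble ADAMTS enzymes but lack the protease domain. Timp proteins bind the active site and block it. In peripheral nerve, Schwann cells, fibroblasts, vessel cells and macrophages are known sources, and the enzymes take part in breaking down and rebuilding the matrix after injury.

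The table held 1 expression value per gene and group, in FPKM, the number of sequenced fragments scaled to transcript length and library size, pooled over the mice. The values of single mice were not in it, so no SD is given, no test was run here, and the differences below have no replicate check. Log2 ratios are log2((HSF V30M + 1) / (HSF WT + 1)), a scale that understates the change of low genes, and a gene was counted as past the fold where this ratio exceeded a fold of 1.5 and its mean FPKM was at least 1. Counting intervals (95%, exact Poisson) were set on the fewest fragments that each FPKM can stand for. They cover counting error only and say nothing of the difference between mice. The reads carried no molecular identifiers, so copies of 1 molecule count as separate fragments and the intervals may be too narrow. Because the tissue was sequenced whole, fewer cells of a type and less RNA per cell cannot be told apart.

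Of the 49 genes, the mean FPKM reached 1 in 33, namely 11 of 21 Mmp, 13 of 19 Adamts, all 5 Adamtsl and all 4 Timp genes. Of these 33, 4 were higher in HSF V30M past the fold (Mmp17, Mmp15, Adamts10 and Adamtsl5; 12.1%, against 8.22% of the 15620 genes with this mean) and 3 were lower (Timp4, Mmp12 and Mmp3; 9.09%, against 8.44%). In either direction that was 7 of 33, where 16.7% of all genes were past the fold. The shares lie near those of all genes, but all genes are an unlike background, since only 12706 of them were protein-coding genes with a GC value and all 33 were. Within 5 GC classes of these coding genes, 3.54% to 8.38% were higher past the fold and 4.25% to 5.86% lower. The shares of the 33 lie above both ranges, but they rest on counts of only 4 and 3. Mmp12, among the 3, had overlapping counting intervals. No test was run, so a difference between the 33 and coding genes was not shown. Ratios were above 0 in 14 of the 33 and below 0 in 19, while 50.4% of all genes were above 0. The median log2 ratio was -0.08, within a range of -1.65 to 0.88, and the median of all genes was 0.00.

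**Figure D1:**
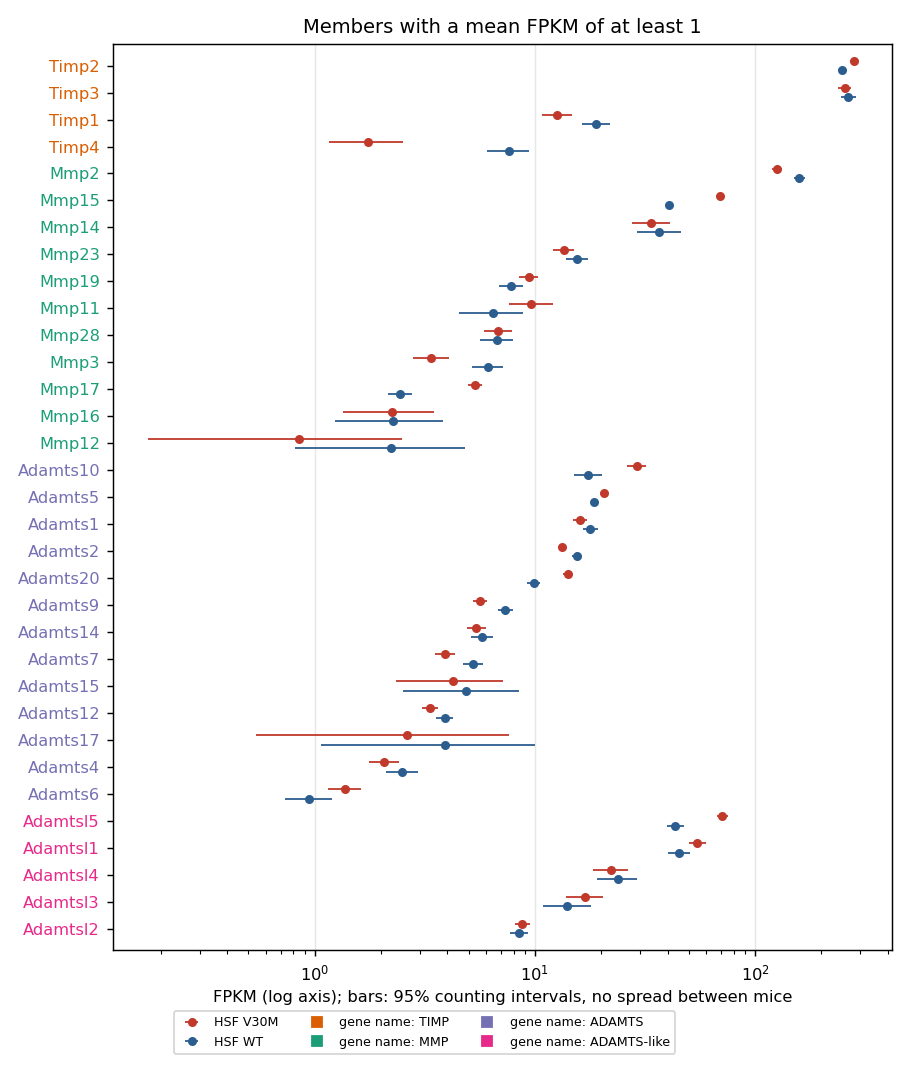
FPKM (log axis) of the 33 genes whose mean FPKM reached 1 in HSF V30M (red) and HSF WT (blue), with 95% counting intervals and gene names coloured by family. Timp2, Timp3 and Mmp2 lie above 100 FPKM in both groups, and the largest gap is that of Timp4, at 1.74 against 7.59.

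The inhibitors were the most abundant family. The 4 Timp genes summed to 549 FPKM in HSF V30M against 540 in HSF WT, or 48.7% and 50.1% of the sum over all 49 genes. Timp2, which inhibits Mmp enzymes and also takes part in the activation of pro-Mmp2 by Mmp14, stood at 280 FPKM in HSF V30M against 249 in HSF WT. Timp3, an inhibitor that stays bound to the matrix and also blocks ADAMTS enzymes, stood at 255 and 265. Neither was near the fold. The counting intervals of Timp2 did not overlap, and those of Timp3 did.

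Timp4, an inhibitor known from heart, brain and fat, had the largest ratio of the 33 genes. It was listed at 1.74 FPKM in HSF V30M (28 to 232 fragments) and 7.59 in HSF WT (87 to 834 fragments), which is 4.36-fold lower in FPKM and -1.65 as a log2 ratio. Its counting intervals, 1.16 to 2.51 and 6.08 to 9.36 FPKM, were apart. Adipocyte markers were lower in HSF V30M as well: all 5 of 5 were below 0, 3 past the fold, with a median log2 ratio of -0.64 and a summed FPKM of 1131 against 1733. Adipoq was listed at 319 against 543 FPKM and Lep at 7.47 against 33.4. Markers of some other cell types were lower by more. Skeletal muscle markers had a median of -1.80, with all 4 of 4 past the fold and a summed FPKM of 31.7 against 109. B cell markers had -2.29 and T cell markers -1.32, whereas neutrophil markers (1.93) and erythrocyte markers (1.34) were higher. The part of fat cells, or of any other cell type, in the value of Timp4 was not tested.

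Timp1, an inhibitor induced by injury and inflammation in many tissues, was just short of the fold on the low side, at 12.64 FPKM in HSF V30M against 18.9 in HSF WT (log2 ratio -0.55), and its intervals were apart. Timp1, Timp3 and Timp4 each lie inside a synapsin gene, on its opposite strand. The strand setting of the counting is not given in the sources used here, so reads of host and nested gene could be mixed. The hosts were low: Syn2, around Timp4, was listed at 0.32 and 0.551 FPKM, Syn1, around Timp1, at 0.68 and 0.663, and Syn3, around Timp3, at 3.68 and 2.69. In the genome build GRCm38, Timp4 lies at chr6:115241892-115252205 on the minus strand, within Syn2 at chr6:115134902-115282006 on the plus strand.

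Among the 11 Mmp genes whose mean reached 1, 5 were higher and 6 lower, with a median log2 ratio of -0.01. Both genes past the fold on the high side encode membrane-bound enzymes. Mmp17 (chr5:129584169-129611099), which is held at the membrane by a lipid anchor, was listed at 5.33 FPKM in HSF V30M (707 to 837 fragments) and 2.45 in HSF WT (235 to 316 fragments), a log2 ratio of 0.88. Mmp15 (chr8:95352268-95375080), which spans the membrane, was listed at 69.51 FPKM (7309 to 8655 fragments) and 40.6 (3090 to 4161 fragments), a log2 ratio of 0.76. In both genes the counting intervals were apart. The other membrane-type enzymes with a mean of at least 1 were close to equal: Mmp14, the main activator of pro-Mmp2, at 33.83 and 36.7 FPKM, and Mmp16 at 2.24 and 2.27.

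Mmp2, a gelatinase that cuts basement membrane collagen and denatured collagen, was the most abundant protease, at 126 FPKM in HSF V30M against 159 in HSF WT. Its log2 ratio was -0.33, short of the fold, with counting intervals apart. Mmp23, a membrane-anchored enzyme released by its own processing, stood at 13.5 and 15.6 FPKM, with intervals overlapping. Mmp11, a stromelysin known from connective tissue cells, was just short of the fold at 9.64 and 6.42 FPKM (log2 ratio 0.52), and its intervals overlapped.

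Both Mmp genes past the fold on the low side belong to a cluster on chromosome 9. Mmp3, a stromelysin that cuts proteoglycans and activates other Mmp enzymes, was listed at 3.38 FPKM in HSF V30M (115 to 137 fragments) and 6.10 in HSF WT (151 to 203 fragments), a log2 ratio of -0.70 with intervals apart. Mmp12, an elastase made by macrophages, was listed at 0.85 FPKM (3 to 73 fragments) and 2.21 (6 to 157 fragments), a log2 ratio of -0.80. Its intervals overlapped, from 0.175 to 2.48 and from 0.813 to 4.82 FPKM, so a difference was not detectable on the fewest fragments. These assume the shortest coding transcript, of 362 bases, and which transcript the reads came from is unknown. Intervals on the most fragments were not computed. Macrophage markers had a median log2 ratio of -0.23, with 4 of 6 below 0 and 1 past the fold (Cd68, 15.5 against 30.9 FPKM), and a summed FPKM of 88.3 against 114. The part of macrophage number in the value of Mmp12 was not tested.

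The cluster holds 9 of the 49 genes within 427 kb (chr9:7272514-7699585): Mmp13, Mmp12, Mmp1b, Mmp3, Mmp1a, Mmp10, Mmp27, Mmp20 and Mmp7. Apart from Mmp3 and Mmp12, no gene of the cluster exceeded 0.22 FPKM in either group. Mmp1b, Mmp7 and Mmp10 were listed at 0 in both groups. Mmp1a was listed at 0 in HSF V30M against 0.0357 FPKM in HSF WT, and Mmp20 at 0.01 in HSF V30M against 0 in HSF WT, each about 1 fragment. A count of 0 allows up to 3 fragments, which for Mmp10 is 0.0924 FPKM in HSF V30M against 0.128 in HSF WT.

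The start regions of the cluster are shown because 8 of its 9 genes share a motif, AP-1, explained below. The 26 other genes with a start region to search lacked it, and 14 genes had none to search. The windows are RefSeq promoters of GRCm38.p6, of which 35 of the 49 genes matched an entry, and the search covered the 250 bases before the start site on both strands. Below are the last 100 bases before the start site, 5′ to 3′, with the AP-1 motif TGANTCA in capitals. AP-1 is the Fos and Jun family of factors, known to act on several genes of this cluster.
Mmp13, chr9:7272414-7272513, plus strand: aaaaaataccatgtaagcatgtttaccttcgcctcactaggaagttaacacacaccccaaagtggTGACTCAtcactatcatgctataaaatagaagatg
Mmp12, chr9:7347274-7347373, plus strand: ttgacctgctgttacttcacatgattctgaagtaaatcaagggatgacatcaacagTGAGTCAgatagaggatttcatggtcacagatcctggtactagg
Mmp1b, chr9:7388027-7388126, minus strand: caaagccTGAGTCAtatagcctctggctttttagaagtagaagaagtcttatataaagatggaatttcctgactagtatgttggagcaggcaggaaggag
Mmp3, chr9:7445722-7445821, plus strand: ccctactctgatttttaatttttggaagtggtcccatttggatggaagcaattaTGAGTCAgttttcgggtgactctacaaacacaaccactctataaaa
Mmp1a, chr9:7464041-7464140, plus strand: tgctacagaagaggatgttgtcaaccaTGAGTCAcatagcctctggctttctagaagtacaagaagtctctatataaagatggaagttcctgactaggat
Mmp10, chr9:7502242-7502341, plus strand: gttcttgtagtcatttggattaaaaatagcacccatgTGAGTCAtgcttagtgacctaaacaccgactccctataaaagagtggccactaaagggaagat
Mmp20, chr9:7628131-7628230, plus strand: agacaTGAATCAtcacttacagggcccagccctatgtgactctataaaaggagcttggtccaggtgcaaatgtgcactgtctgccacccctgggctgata
Mmp7, chr9:7691990-7692089, plus strand: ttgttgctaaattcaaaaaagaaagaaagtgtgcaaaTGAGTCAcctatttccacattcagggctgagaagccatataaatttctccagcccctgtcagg

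The AP-1 motif was in 8 of the 9 genes of the cluster, the exception being Mmp27. It began between 35 and 95 bases before the start site. It was in none of the 26 other matched genes and in 6.75% of the 32851 windows of all promoters (2.73% within the last 100 bases). Counted by window like that background, it was in 8 of 11 windows of the cluster (72.7%). Mmp12 and Mmp7 each have a further window without the motif, which is not shown. Counted by gene, it was in 2113 of the 27025 genes with a promoter. TATAAA was in 7 of the 9 genes (63.6% of their windows), in 3 of the 26 others (Adamts1, Adamtsl2 and Mmp21) and in 12.4% of all windows. The GC box GGGCGG was in none of the 9, in 20 of the 26 others (74.1% of their windows) and in 32.7% of all windows. The motifs were searched separately, and 0 pairs of matches to different motifs overlapped. The heat shock element GAANNTTC, considered because both groups lack an Hsf1 copy, was found in Mmp10 only, and in 6.69% of all windows. Median GC content of the windows was 40.0% in the cluster, 64.4% in the others and 52.4% over all. Such matches are letters in a window and not measured binding.

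**Figure D2:**
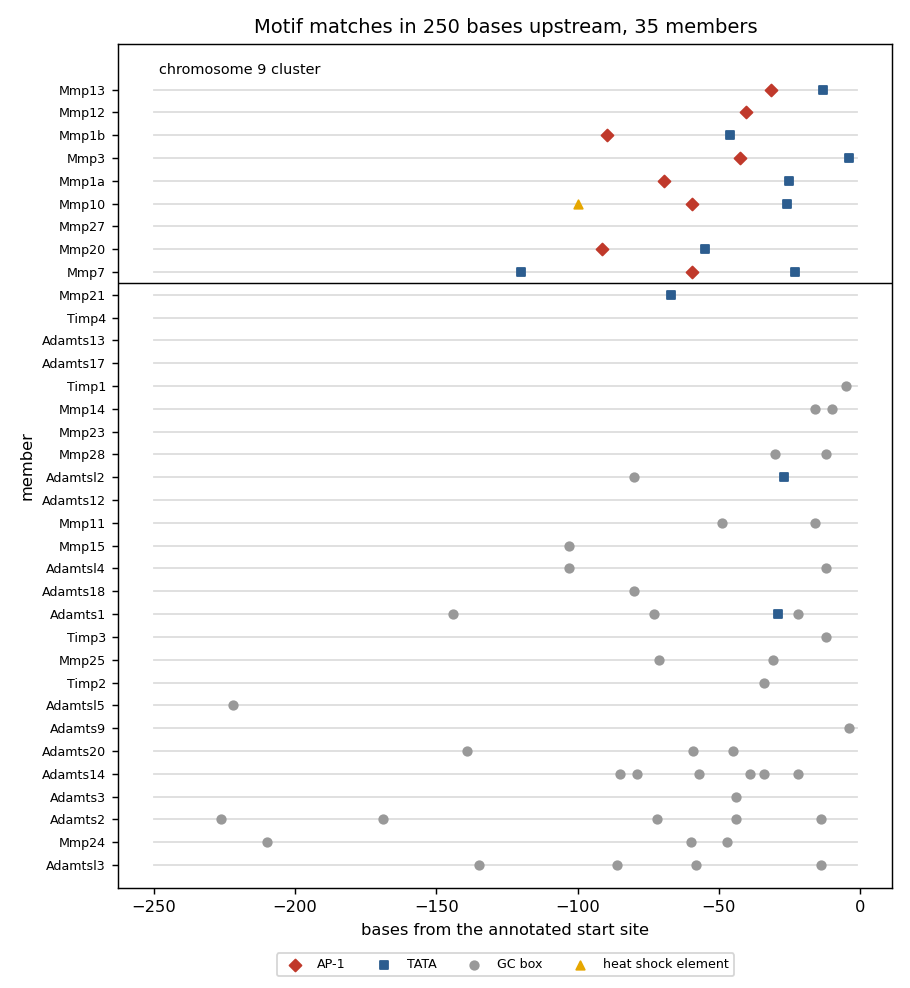
Positions of 4 motifs in the 250 bases before the annotated start site of the 35 genes with a RefSeq window (x axis, bases from the start site), with the chromosome 9 cluster above the line. AP-1 (diamonds) appears in 8 of the 9 cluster genes and GC boxes (circles) in 20 of the 26 others.

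For comparison, the 250 bases before the start site are given for Timp4, the gene with the largest ratio, and for Mmp15 and Adamtsl5, which were past the fold on the high side. Capitals mark the GC box on either strand, and Timp4 has no match to any of the 4 motifs.
Timp4, chr6:115252206-115252455, minus strand: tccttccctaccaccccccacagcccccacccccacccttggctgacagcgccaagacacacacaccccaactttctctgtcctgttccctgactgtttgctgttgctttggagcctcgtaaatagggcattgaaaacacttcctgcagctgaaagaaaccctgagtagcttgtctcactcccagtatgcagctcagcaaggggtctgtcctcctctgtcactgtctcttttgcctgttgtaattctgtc
Mmp15, chr8:95352046-95352295, plus strand: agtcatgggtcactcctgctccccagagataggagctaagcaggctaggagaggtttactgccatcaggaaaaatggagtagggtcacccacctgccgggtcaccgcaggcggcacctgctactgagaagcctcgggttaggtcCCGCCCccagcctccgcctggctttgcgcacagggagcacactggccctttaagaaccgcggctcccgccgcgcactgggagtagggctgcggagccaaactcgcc
Adamtsl5, chr10:80348449-80348698, minus strand: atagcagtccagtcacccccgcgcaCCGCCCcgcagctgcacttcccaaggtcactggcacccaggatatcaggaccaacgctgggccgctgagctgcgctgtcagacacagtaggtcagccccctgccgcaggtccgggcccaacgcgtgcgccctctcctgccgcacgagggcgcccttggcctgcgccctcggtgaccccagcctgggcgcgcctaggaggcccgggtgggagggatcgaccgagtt

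Of the ADAMTS enzymes with a mean of at least 1, 4 were higher and 9 lower, with a median log2 ratio of -0.15. Adamts10 (chr17:33524204-33553782), which binds fibrillin microfibrils, was the only one past the fold, at 28.93 FPKM in HSF V30M (423 to 2805 fragments) and 17.5 in HSF WT (185 to 1393 fragments), a log2 ratio of 0.70 with intervals apart. Centred by GC content its ratio was 0.56, short of the fold. Adamts5 and Adamts1, which cut aggrecan and versican, were listed at 20.52 against 18.6 FPKM and at 16.05 against 17.9. Adamts20, another versican-cutting enzyme, stood at 14.1 against 9.87 FPKM (log2 ratio 0.47, intervals apart).

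None of the 3 enzymes that trim the amino end of procollagens was counted as past the fold. Adamts2 was listed at 13.28 and 15.5 FPKM, with intervals apart, and Adamts14 at 5.42 and 5.77, with intervals overlapping. Adamts3 was below the minimum mean, at 0.19 FPKM in HSF V30M (7 to 18 fragments) and 0.926 in HSF WT (23 to 72 fragments), a log2 ratio of -0.69 that would be past the fold without that minimum. Adamts7 and Adamts12, which cut cartilage oligomeric matrix protein (Comp), were listed at 3.91 against 5.25 FPKM and at 3.34 against 3.89. Comp itself was lower past the fold, at 14.59 against 24.9 FPKM.

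The 16 genes under a mean of 1 were 10 Mmp and 6 Adamts genes. Besides Adamts3, Adamts16 was listed at 0.08 FPKM in HSF V30M (5 to 10 fragments) and 0.733 in HSF WT (36 to 73 fragments), a log2 ratio of -0.68 that would likewise be past it. Adamts18 went the other way, at 0.27 (31 to 37 fragments) and 0.0233 (2 to 3 fragments). In these 3 genes the counting intervals were apart, although they fell below the minimum, and in the rest of the 16 they overlapped. The 3 were chosen after their values were seen. The share of all genes under this mean with intervals apart was not computed. Mmp21, Mmp24 and Mmp25 did not exceed 0.381 FPKM, and Adamts8 stood at 0.88 and 0.913.

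The ADAMTS-like genes had a median log2 ratio of 0.25, with 4 of 5 above 0 (Adamtsl2, at 0.04, was at -0.04 when centred by GC content), and a summed FPKM of 173 in HSF V30M against 135 in HSF WT (15.4% and 12.5% of the sum over the 49 genes). Adamtsl5 (chr10:80339110-80348412), a fibrillin-binding protein, was listed at 70.96 FPKM (1196 to 3148 fragments) and 43.4 (529 to 1585 fragments), a log2 ratio of 0.70 with intervals apart. Adamtsl1, a secreted matrix protein also called punctin, stood at 54.61 and 45.3 FPKM, and Adamtsl4, which binds fibrillin, at 22.23 and 23.8. Adamtsl3, another secreted matrix protein, stood at 16.91 and 14.05 FPKM. Adamtsl5 was the only one past the fold, and centred by GC content it was short of it, at 0.56.

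**Figure D3:**
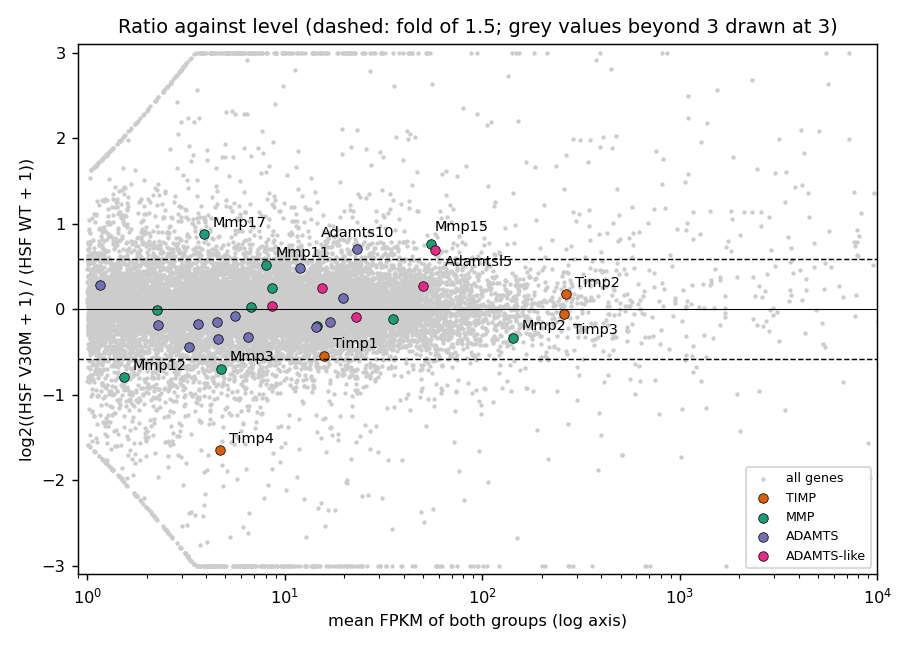
Log2 ratio (y axis) against mean FPKM (x axis, log) of the 33 genes, coloured by family, over all genes in grey. Dashed lines mark a fold of 1.5, and 4 of the 33 lie above and 3 below.

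By counting error alone, 7 of the 33 genes were higher in HSF V30M (Timp2, Mmp15, Mmp17, Adamts10, Adamts20, Adamts5 and Adamtsl5), where 11.8% of 15590 genes were, and 7 were lower (Timp1, Timp4, Mmp2, Mmp3, Adamts2, Adamts7 and Adamts9), where 11.1% were. In the other 19 the intervals overlapped. The shares of all genes are again over coding and other genes together. Of the 7 genes past the fold, Mmp12 was the only one whose intervals overlapped.

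The ratios moved with GC content over the whole table. Protein-coding genes were put in 5 equal classes of GC content. In the lowest class the median log2 ratio was -0.05, and in the highest it was 0.10, where 8.38% of genes were higher past the fold, against 3.54% in the lowest. Mmp15, Adamts10 and Adamtsl5 were in the highest class and Mmp17 in the next, whereas Mmp12 was in the lowest and Mmp3 and Timp4 in the next. After the ratios were centred within 10 finer classes, Adamts10 and Adamtsl5, both at 0.56, were no longer past the fold, which left 2 genes higher and 3 lower in place of 4 and 3. The other 5 stayed past the fold after centring, with Timp4 at -1.61, Mmp17 at 0.85, Mmp12 at -0.75, Mmp3 at -0.66 and Mmp15 at 0.62.

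**Figure D4:**
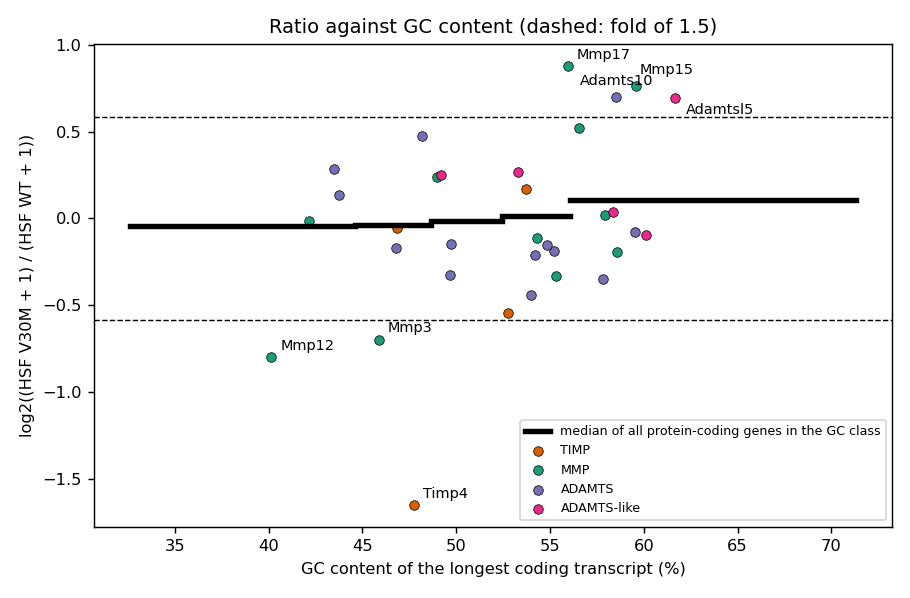
Log2 ratio (y axis) against GC content of the longest coding transcript (x axis, percent) of the 33 genes, with the median of all protein-coding genes in each of 5 GC classes as black bars. The bars run from -0.05 to 0.10, and the 4 genes above the upper dashed line lie in the highest 2 classes.

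The rest of the protease system was read from 5 lists. Of 11 ADAM proteases with a mean of at least 1, none was past the fold (8 above 0, median log2 ratio 0.15). Of 6 genes of the plasminogen system, which activates several pro-Mmp enzymes, 1 was higher: Serpine2, an inhibitor of thrombin and plasminogen activators, at 99.17 against 43.5 FPKM. Of 10 activators and other inhibitors of metalloproteinases, 2 were higher: the matrix proteoglycans Spock2, at 44.52 against 26.6 FPKM, and Spock1, at 1.63 against 0.668. Of 4 procollagen C-proteinases and enhancers, 1 was lower: Pcolce2, an enhancer of the cut, at 8.91 against 15.2. Of 10 ADAMTS substrates and partners, Vwf, the clotting factor cut by Adamts13, was higher at 52.49 against 27.3 FPKM and Comp was lower.

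Markers of the cell types that a nerve sample can hold differed in how far they moved. Fibroblast markers had a median log2 ratio of -0.07 with none of 6 past the fold, and Schwann cell markers 0.16 with none of 7, at a summed FPKM of 12257 and 10786. Perineurial markers had 0.05 with none of 4 past the fold. Endothelial markers had -0.02, with 1 of 5 higher past the fold (Cldn5, 100 against 57.9 FPKM). Smooth muscle and pericyte markers went both ways, with a median of 0.10, 1 of 5 higher (Rgs5) and 2 lower (Tagln and Myh11), and a summed FPKM of 708 against 1321. Neutrophil markers had a median of 1.93 (all 5 with a mean of at least 1 past the fold), erythrocyte markers 1.34 (3 of 4), and skeletal muscle markers -1.80 (4 of 4 lower). B cell markers had -2.29 (3 of 3 lower), T cell markers -1.32 (2 of 2) and mast cell markers -0.63 (3 of 5). Hsf1 was lower past the fold, at 7.94 FPKM in HSF V30M against 15.0 in HSF WT (log2 ratio -0.84), although both groups are described as lacking 1 copy. The reason was not tested. The part of these cell types in the values above was not tested.

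**Figure D5:**
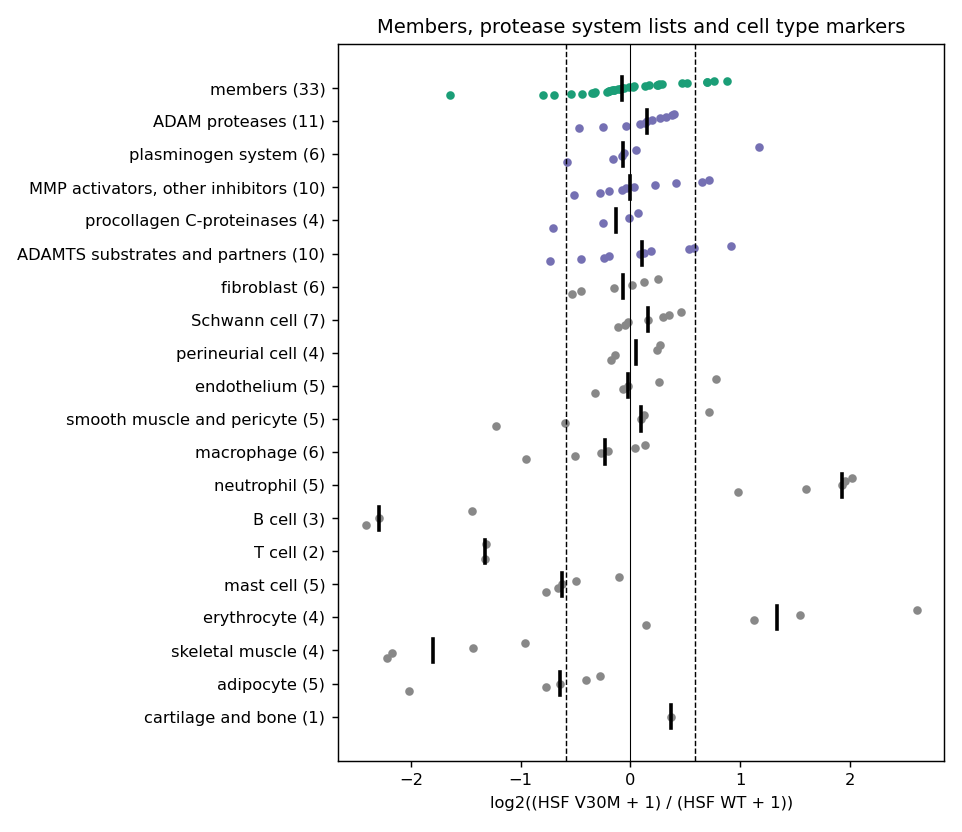
Log2 ratio (x axis) of each gene whose mean FPKM reached 1, by list (y axis, number of genes in brackets), with medians as black bars and dashed lines at a fold of 1.5. The 33 metalloproteinase and Timp genes centre at -0.08, between B cell markers at -2.29 and neutrophil markers at 1.93.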

How the data were processed

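RNA libraries of mouse sciatic nerve, HSF V30M and HSF WT, were prepared by Ion Torrent methods. Per the labels, the authors used STAR, Cufflinks and Cuffdiff with the build GRCm38, and versions are not given in the sources used here. The authors deposited 1 table with a pooled FPKM value per gene and group, in decimal commas. It also holds their log2 fold change, test statistic, p-value, q-value and significance mark, which were not used. The tests on values per mouse that had been planned could not be run on pooled values.

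Of 50593 genes, 23 that Cuffdiff marked as having excess alignments were dropped. Ratios used a pseudocount of 1, a minimum mean FPKM of 1 and a fold of 1.5. The members and lists were chosen with earlier results of these data known. Any member could be named. Values were to be given for those past the fold, the 3 most abundant of the rest in each family, those nearest the fold and those listed at 0, with up to 4 past the fold from each other list. Members given values beyond this rule (Mmp16, Mmp21, Mmp24, Mmp25, Mmp28, Adamts3, Adamts7, Adamts8, Adamts12, Adamts14, Adamts16, Adamts18, Adamts20 and Adamtsl2) were chosen after their values were seen.

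Depth was estimated on genes that have 1 transcript and overlap no other gene. After 198 bases were subtracted from each length, 1 fragment was worth 0.0482 and 0.0649 in the libraries of HSF WT (97.6% of 876 values within 1%) and 0.0397 and 0.0470 in those of HSF V30M. The HSF V30M values are rounded, so that only 30.9% of 246 lay within 1% and 95.9% within 5%. A first, wider window, which ended at 0.09 and so took in values of 2 fragments, had given 59.7% of 395 within 5%. The window was then ended at 0.075, after that result had been seen. Both gave the same worths, and over all windows, length and FPKM cutoffs tried the worths ranged from 0.0396 to 0.0401 and from 0.0460 to 0.0478, while the share within 5% ranged from 46.6% to 97.0%. Fragment numbers for HSF V30M are therefore less certain. A range runs from the shortest coding transcript and larger worth to the longest and smaller worth.

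Positions and transcripts are from GENCODE M21. Promoter windows are from RefSeq, and for 31 of 38 the first 30 transcribed bases were found in a GENCODE transcript. The alternatives were a pseudocount of 0.1, no minimum or a minimum of 5, median-of-ratios scaling and a fold over 2. Centring by GC content in 10 classes and ratios without a pseudocount were added after seeing the data. The ratio and fold step was tested on simulated data. Scripts ran in Python 3.11.15 with scipy 1.17.1, pandas 2.3.3, matplotlib 3.10.9 and numpy 2.4.6.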

Additional observations from a re-analysis of the deposited data

How the results depend on the processing

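The table holds 1 value per gene and group, so no replicate could be left out. No paired analysis was possible because each column pools the mice of a group. Of the 33 genes, 7 were past the fold. With a minimum mean FPKM of 5, 3 of 22 were (Adamts10, Adamtsl5 and Mmp15), the median log2 ratio turned from -0.08 to 0.029, and 1378 of 10205 genes of the whole table were past the fold in place of 2603 of 15620; fewer genes entered this count. With a fold over 2, 1 of the 33 (Timp4) and 1237 of all genes remained. With no minimum, 9 of 46 genes were past the fold, 4 higher and 5 lower, since Adamts3 (-0.69) and Adamts16 (-0.68) were added, and 3606 of 29177 genes of the table were. Centring by GC content gave 5 genes, with the share of higher calls at 40.0% in place of 57.1%. Without a pseudocount there were 8, Mmp11 (0.59) being added. A pseudocount of 0.1 and median-of-ratios scaling left 7 genes past the fold. Changing the pseudocount, the minimum or the fold cannot reverse a ratio, so these alternatives do not test direction. Median-of-ratios scaling could reverse only the smallest ratios, as it moved the median of the 33 from -0.077 to -0.080. Centring by GC content shifted ratios further, for Adamts10 from 0.70 to 0.56. The 7 genes past the fold kept their direction under it, but their ratios were large against such shifts. Of the other 26, Mmp16 (to 0.03), Mmp28 (to -0.06) and Adamtsl2 (to -0.04) changed sign when centred. Few fragments at the low end of the range limit Mmp12, Adamts17, Adamts15 and Mmp16, and the spread between mice is unknown for all genes.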
